A study of Mus musculus with 18 samples.

Results

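Brown adipose tissue (BAT) of mice that overexpress human FXR was set against the white adipose tissue (WAT) of control mice, with control BAT as the brown end of the scale. The members were the 5 FXR BAT arrays and the 4 control WAT arrays, chosen by their titles, with the 5 control BAT arrays as reference. These are 14 of the 18 arrays of the study, in which total RNA of mouse fat was hybridised to Affymetrix gene arrays. Every animal was a male C57BL/6J mouse of 10 weeks on chow. FXR animals carried human FXR, the farnesoid X receptor, raised specifically in adipose tissue, and control animals were wild type. Labels of control BAT 2 and 4 add a chow period of 6 weeks. The promoter of the transgene, the white fat depot, any pooling of animals and whether both fats came from the same mice are not given in the labels. The design text calls the arrays of a group biological replicates, and p-values measure the spread between these arrays.

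Brown adipocytes burn lipid to make heat. Their many mitochondria carry UCP1, a protein of the inner membrane that lets protons flow back without making ATP, and cold signals reach them through adrenergic receptors and cyclic AMP. White adipocytes store triglyceride in a large droplet and secrete hormones such as leptin and resistin. Whitening is the name for brown fat that takes on features of white fat: less of the heat programme, fewer mitochondria, larger droplets, and often more matrix and macrophages. FXR is a nuclear receptor for bile acids, best known from liver and intestine.

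Levels below are log2(intensity + 1) after quantile normalization of all arrays, so 1 unit is a 2-fold difference in normalized intensity. For each gene the distance is control WAT minus control BAT, the move is FXR BAT minus control BAT, and the share is the move as a percentage of the distance. A share of 0% is the control brown level and 100% the control white level. A gene was called where limma's adjusted p lay under 0.05. Brown-high genes were called and at least 1 log2 unit higher in control BAT, and white-high genes were called and at least 1 log2 unit higher in control WAT. Moves with the distance are named toward white, and moves against it away from white.

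The labelled tissues carried their markers. Ucp1 measured 12.37, 12.77, 12.73, 12.61 and 12.68 in control BAT and 6.12, 6.03, 6.08 and 5.89 in control WAT. Resistin (Retn) measured 8.53, 8.70, 8.97, 8.28 and 7.88 in control BAT against 12.29, 12.16, 11.86 and 12.16 in control WAT. Neither gene's arrays overlapped between the control tissues. Some textbook depot markers were weak here: the distance was 0.51 for Hoxc9, 0.11 for Hoxc10 and -0.36 for Zic1, and Tbx15, listed as a white marker, had a distance of -0.26 that was not called (adjusted p = 0.12). Mouse Nr1h4, the gene of FXR, lay between 6.00 and 6.09 in both BAT groups, and no probe of the human transgene was used here.

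Skeletal muscle genes set some FXR BAT arrays apart. The mean level of 32 muscle genes was 9.76, 9.09 and 9.81 in FXR BAT 1, 2 and 4, but 6.55 and 7.63 in FXR BAT 3 and 5. Control BAT ranged from 6.50 to 7.76 and control WAT from 6.29 to 6.34. Counts for the gene lists are also given without arrays 1, 2 and 4. With only FXR BAT 3 and 5 left, 25.1% of all brown-high genes were called lower and 28.1% of all white-high genes higher. With all arrays these rates were 31.2% and 44.6%, so list counts from the smaller fit stand against lower rates. Across genes, arrays of a group correlated at 0.992 or more in control BAT, at 0.972 or more in FXR BAT and at 0.983 or more in control WAT.

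FXR BAT stayed far from control white fat. Between these 2 tissues 11975 of 19937 genes were called (60.1%), with 4512 higher (22.6%) and 7463 lower (37.4%) in FXR BAT. Control BAT differed from control WAT at 12089 genes (60.6%). Array correlations across genes were 0.865 to 0.899 between FXR BAT and control WAT, and 0.857 to 0.879 between control BAT and control WAT. FXR BAT and control BAT correlated at 0.966 to 0.986. Within brown fat 2016 genes were called (10.1%), 956 higher (4.8%) and 1060 lower (5.32%) in FXR BAT. Genes whose arrays did not overlap between FXR BAT and control BAT numbered 2056 (10.3%).

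A brown-to-white distance was found for 640 brown-high genes (3.21%) and 722 white-high genes (3.62%). Summed over the brown-high genes, the share was 12.4%, 11.0%, 11.3%, 9.45% and 12% in FXR BAT 1 to 5, or 11.2% ± 1.16 (SD, n = 5). Over the white-high genes it was 21.0%, 19.8%, 13.6%, 16.8% and 18.9%, or 18% ± 2.91 (SD, n = 5). Every FXR BAT array lay above every control BAT array in both classes. Single control BAT arrays, each set against the other 4, gave -1.22% to 1.28% for brown-high genes and -3.02% to 4.31% for white-high genes. The shares were 11.5% and 16.2% without FXR BAT 1, 2 and 4.

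**Figure D1:**
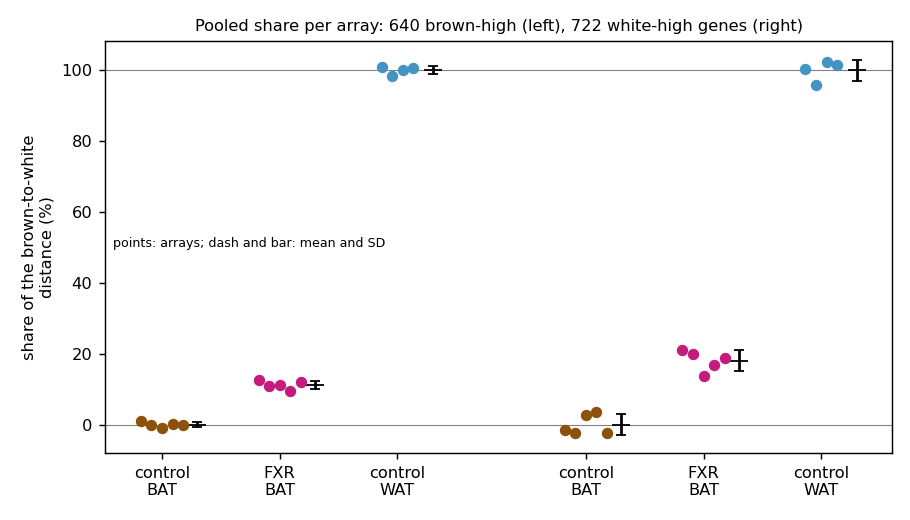
Pooled share of the brown-to-white distance (%) on each array, for brown-high genes (left) and white-high genes (right); points are arrays, dashes and bars the mean and SD of a group. FXR BAT arrays sit between 9.45% and 12.4% for brown-high genes and between 13.6% and 21.0% for white-high genes, above all control BAT arrays and far below control WAT.

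Single genes followed the distance far more often than they opposed it. Of the brown-high genes, 200 were lower in FXR BAT than in control BAT (31.2%) and 4 were higher (0.625%). Of the white-high genes, 322 were higher (44.6%) and 3 were lower (0.416%). Genes with no such distance were called higher in 3.39% and lower in 4.61% of cases. Distance and move share the 5 control BAT arrays, which by itself ties their signs. With the distance taken from control BAT 1, 3 and 5 and the move against control BAT 2 and 4, 91 of 645 brown-high genes were lower and 183 of 739 white-high genes higher. With these control arrays exchanged, the counts were 121 of 638 and 236 of 718, and the summed shares were 10.4% and 17.0% in the first split and 11.1% and 18.4% in the second. Counts away from white are not given for the splits, so their counts toward white do not show the balance of directions. The summed shares take in moves both ways.

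The typical gene moved little. The median share was 9.79% over brown-high genes and 14.2% over white-high genes, and 89 brown-high and 119 white-high genes had a share below 0%. A share above 50% was reached by 13 brown-high and 48 white-high genes. Among white-high genes the part called toward white was 36.9% for distances of 1 to 1.5 log2 units and 63.8% for distances of 2 to 3 units. Among brown-high genes it was 26.9% and 41.0% in the same ranges. For distances of at least 3 units it was 50% of 24 white-high and 43.5% of 23 brown-high genes.

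Direct comparison with white fat gives the far side of the picture. Of the 1362 genes with a distance, 1347 were still called apart from control WAT on the brown side (98.9%), 2 lay beyond white (0.147%) and 13 were not called apart from white. The 13 were Acta2, Cilp, Col14a1, Col1a1, Cryab, Dpt, Fstl1, Islr, Mfap5, Ogn, Serping1, Sfrp1 and the brown-high gene St3gal5, and all 13 were called toward white. Most of them encode matrix proteins or proteins of fibroblasts. That these genes were not called apart from white does not show that the levels were equal. It also depends on the scaling. In the values as deposited all 13 were called above control WAT, Cilp by 1.13 log2 units, and with arrays centred on their medians 11 were, the exceptions being Cryab and Mfap5.

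**Figure D2:**
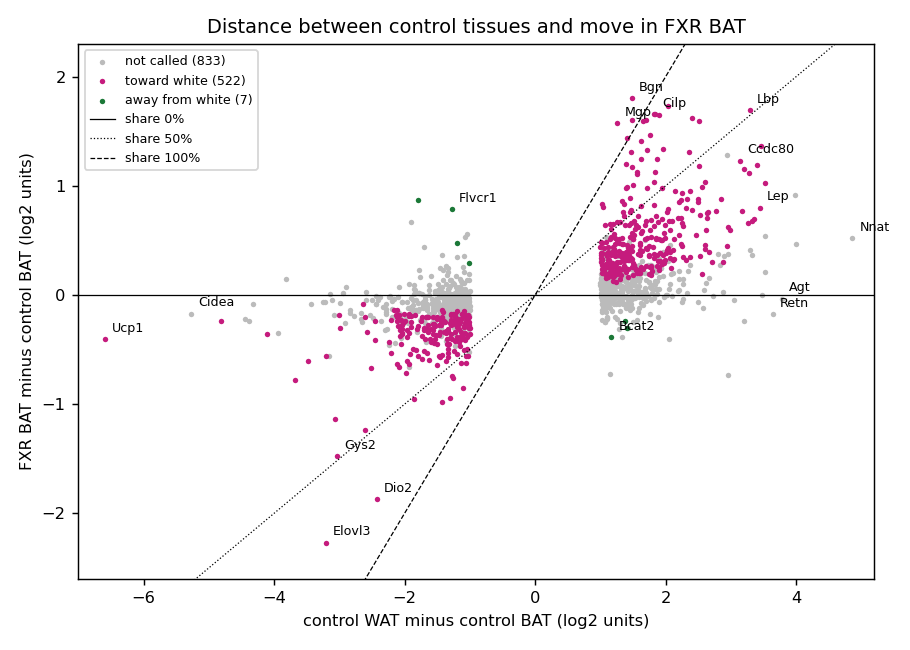
Move (FXR BAT minus control BAT, log2 units) against distance (control WAT minus control BAT, log2 units) for the 1362 brown-high (left) and white-high (right) genes; pink points were called toward white, green points away, and lines mark shares of 0%, 50% and 100%. Ucp1 has the largest distance and a small share, Dio2 and Elovl3 lie between the lines of 50% and 100%, and Bgn and Mgp lie beyond 100%.

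Quantile normalization gives all arrays the same distribution, and this bears on every comparison across the tissues. The deposited intensities had array medians of 93.1 to 99.9 in BAT and 60.7 to 61.7 in control WAT. Used as deposited, they put nearly all genes higher in brown fat: 98.0% of the 19232 genes called between the control tissues. The share was then 8.53% over 5115 brown-high genes and 34.0% over 70 white-high genes. With arrays centred on their medians it was 17.7% over 1863 and 27.2% over 266 genes. Called toward white were 32.7% of the brown-high and 55.7% of the white-high genes as deposited, and 58.8% and 54.1% after median centring.

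Shares of the heat effector genes ran from -5.68% (S100b, also in the list of Schwann cells and nerve) to 77.0% (Dio2). The promoters of Ucp1, with a share of 6.13%, and Dio2 are shown for their different shares, as 300 bases each from RefSeq on GRCm38.p6 around the start of the gene. Ucp1 lies on the plus strand at chr8:83290098-83290397 and Dio2 on the minus strand at chr12:90738989-90739288. Capitals mark AGGTCA, a site core of nuclear receptors, and TGACG, part of the cyclic AMP response element, searched on both strands.
Ucp1: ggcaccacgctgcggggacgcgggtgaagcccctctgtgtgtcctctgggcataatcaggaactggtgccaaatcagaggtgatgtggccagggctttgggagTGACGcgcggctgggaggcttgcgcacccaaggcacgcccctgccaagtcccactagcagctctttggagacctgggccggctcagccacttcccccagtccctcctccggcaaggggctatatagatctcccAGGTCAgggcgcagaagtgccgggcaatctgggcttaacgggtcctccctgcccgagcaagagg
Dio2: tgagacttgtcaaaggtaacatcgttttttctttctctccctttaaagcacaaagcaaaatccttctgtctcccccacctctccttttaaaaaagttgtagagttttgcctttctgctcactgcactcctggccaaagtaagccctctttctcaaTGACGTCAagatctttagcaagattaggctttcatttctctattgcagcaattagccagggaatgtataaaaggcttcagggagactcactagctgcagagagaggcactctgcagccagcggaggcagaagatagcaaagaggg
In the Ucp1 window 1 AGGTCA and 1 TGACG were found. The Dio2 window holds 0 AGGTCA and 2 TGACG matches, which overlap on opposite strands as the palindrome TGACGTCA. Of 32851 windows of this length, 16.3% held AGGTCA and 20.8% held TGACG, so these matches are a description of the letters and not of bound factors.

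Ucp1 measured 12.27, 12.36, 12.07, 12.17 and 12.27 in FXR BAT, against the control values given above. Every FXR BAT array lay just below the lowest control BAT array and far above white fat. The move was -0.40 ± 0.07 (SE, adjusted p = 0.00274), a 1.32-fold lower level. Ucp1 in control WAT was close to the floor of the arrays, so no fold against white is given.

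Cidea, a lipid droplet protein of brown adipocytes, had a share of 3.24% and was not called (move -0.17, adjusted p = 0.106). Cox7a1, a subunit of cytochrome c oxidase, had a share of 4.88% and was called lower (adjusted p = 0.000365). The fatty acid binding protein gene Fabp3 and the oxidase subunit gene Cox8b, not called, had shares of 4.88% and 5.45%. These and Ucp1 are the 5 brown-high genes with the largest distances.

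Dio2, the deiodinase that makes active thyroid hormone inside brown fat, measured 8.50, 8.51, 8.99, 8.90 and 7.72 in control BAT. FXR BAT measured 6.62, 6.62, 6.41, 7.05 and 6.58, and control WAT 6.05, 6.12, 6.14 and 6.07. FXR BAT arrays lay below all control BAT arrays and above all white arrays. The move was -1.87 ± 0.19 (adjusted p = 2.54e-05), and FXR BAT was still called above white (0.56, adjusted p = 0.0255). The call against white was lost without FXR BAT 4 (adjusted p = 0.0647), control WAT 1 (0.0546) or control WAT 4 (0.0535). It was also lost with median centring (0.0508) and without FXR BAT 1, 2 and 4 (0.224). Dio2 in control WAT was 1.38-fold above the 1% quantile of the arrays, and such dim values compress a difference.

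Elovl3, an elongase of very long fatty acids that rises in active brown fat, measured 9.38, 9.99, 9.59, 9.15 and 8.94 in control BAT. In FXR BAT it measured 7.36, 8.00, 6.18, 7.30 and 6.87, and in control WAT 6.28, 6.12, 6.19 and 6.22. FXR BAT 3 was within the white range, and the other 4 arrays lay between the tissues. The share was 70.7% ± 7.64 (SE), with a move of -2.27 ± 0.27 (adjusted p = 8.82e-05). It was called 0.94 above white (adjusted p = 0.00984), and not without FXR BAT 1, 2 and 4 (adjusted p = 0.294). Elovl3 in control WAT was 1.48-fold above the 1% quantile of the arrays, so its white level was also dim.

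Of 23 measured heat effectors 16 were brown-high, and 11 of these were called toward white, beside 31.2% of all brown-high genes. The median share was 13.6%, beside 9.79% over all brown-high genes. Ppargc1a, the coactivator that drives mitochondrial genes, had a share of 32.9% (move -0.63, adjusted p = 0.000523). The list had 9 of 16 toward white without FXR BAT 1, 2 and 4, beside 25.1% of all brown-high genes in that fit.

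Few genes in the list of brown identity regulators had a distance. Of 24 measured genes of the list 5 were brown-high. Of these, 2 were called toward white (Mpzl2 and Tfam), beside 31.2% of all brown-high genes, and 1 without FXR BAT 1, 2 and 4. Over all 24 genes 6 were called lower and 0 higher in FXR BAT, beside 5.32% and 4.8% of all genes. Prdm16, a regulator of brown fate, moved by -0.36 (adjusted p = 0.00322) over a distance of -0.96. Its call was lost without FXR BAT 1, 2 and 4 (adjusted p = 0.12). Zic1 and Lhx8, markers of classical brown adipocytes, were not called between the BAT groups (adjusted p = 0.918 and 0.0896). The Tfam call did not hold when single arrays were left out (adjusted p up to 0.0841).

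Most respiratory chain genes had a distance, and their shares were small. For the respiratory chain, 27 of 34 measured complex I genes and 25 of 40 genes of complexes II to V were brown-high. Toward white were 7 and 4 of them, none moved away, beside 31.2% of all brown-high genes, and the median shares were 6.88% and 3.78%. The counts were 9 and 1 without FXR BAT 1, 2 and 4, beside 25.1% of all brown-high genes in that fit. Shares of the complex I genes ran from 1.52% to 17.1%. Of 44 measured mitochondrial ribosome and import genes 16 were brown-high and 28 had no distance. Of the 16, 4 were called toward white, and of the citric acid cycle list 4 of 18. Both counts were 5 without FXR BAT 1, 2 and 4, beside the same 25.1%. The median shares were 10.9% and 6.73%, beside 9.79% over all brown-high genes.

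Sdhd, a membrane anchor of succinate dehydrogenase, measured 11.06, 11.09, 11.14, 11.08 and 11.08 in control BAT, 10.93, 10.92, 10.82, 10.87 and 10.91 in FXR BAT, and 9.51, 9.44, 9.25 and 9.47 in control WAT. The arrays of the 3 groups did not overlap. The move was -0.20 ± 0.04 (adjusted p = 0.00718) and the share 12%, and the call was lost without FXR BAT 1, 2 and 4 (adjusted p = 0.054). Ndufc1 of complex I moved by -0.27 (adjusted p = 0.00427) with a share of 17.1%. Pdp2, a phosphatase that switches pyruvate dehydrogenase on, had a share of 38.2% (adjusted p = 0.000806).

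How many mitochondrial genes were called depended on the scaling. As deposited, 28 of 34 complex I genes and 25 of 39 of complexes II to V were called toward white. This stands beside 32.7% of all brown-high genes under that scaling. With arrays centred on their medians, 31 of 33 and 31 of 38 were, beside 58.8% of all brown-high genes there. The pooled shares stayed small, at 9.21% and 8.55% as deposited and 13.7% and 12.8% after median centring, beside 7.79% and 4.89% after quantile normalization. Other lists of mostly brown-high genes also held more calls as deposited than after quantile normalization. Toward white there were 32 of 44 mitochondrial ribosome and import genes, 16 of 21 citric acid cycle genes, 15 of 20 of branched-chain amino acid breakdown, 10 of 12 of triglyceride synthesis, 14 of 23 of glycogen and glucose use and 7 of 12 identity regulators. These counts too stand beside 32.7% of all brown-high genes.

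In fatty acid oxidation 5 of 18 genes with a distance were called toward white, beside 31.2% of all brown-high genes, with a median share of 7.43%. Without FXR BAT 1, 2 and 4 this count was 0, beside 25.1% of all brown-high genes in that fit. The count was 17 of 22 as deposited and 18 of 21 after median centring, beside 32.7% and 58.8%. Acadm, a medium-chain acyl-CoA dehydrogenase, had a share of 33% (adjusted p = 0.0133, but 0.347 without those arrays). For de novo lipogenesis 0 of 11 were called by limma, also without those arrays, and 0 had an unadjusted p under 0.05 toward white. As deposited 6 of 20 were called and after median centring 7 of 18, beside the same 32.7% and 58.8%. The share over its genes was 29.1% in FXR BAT 3 and at most 10.2% on the other FXR BAT arrays. In branched-chain amino acid breakdown 4 of 8 were called toward white and 1 away, beside 38.3% and 0.514% of all genes with a distance. Without FXR BAT 1, 2 and 4, 1 was called toward white.

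Of 6 triglyceride synthesis genes with a distance 3 were called toward white, beside 38.3% of all genes with a distance. The pooled share was 25.1% ± 7.01 (SD, n = 5). The count was also 3 without FXR BAT 1, 2 and 4, and the share was 22.5% as deposited and 29.1% after median centring. Acsl5, which activates fatty acids, moved by -1.13 ± 0.15 (adjusted p = 0.000268, share 37.0%). Agpat3, an acyltransferase, had a share of 38.9% (adjusted p = 0.000279). The third, Gpd1, was lost when any of 10 single arrays was left out (adjusted p up to 0.102).

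Gys2, a glycogen synthase, measured 9.40, 9.57, 10.25, 9.54 and 9.62 in control BAT. FXR BAT measured 8.39, 8.58, 7.23, 8.67 and 8.12, and control WAT 6.82, 6.47, 6.65 and 6.59. All FXR BAT arrays lay between the control tissues, with FXR BAT 3 the lowest. The move was -1.48 ± 0.23 (adjusted p = 0.000852), a share of 48.6%. Ppp1r3b, which targets a phosphatase to glycogen, had a share of 31.3% (adjusted p = 0.000126).

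In the glycogen and glucose list 9 of 16 genes with a distance were called toward white, beside 38.3% of all genes with a distance. Without FXR BAT 1, 2 and 4 the list's count was 11. Its pooled share was 21.5% ± 11.5 (SD, n = 5), from 8.41% in FXR BAT 1 to 37.2% in FXR BAT 3, and it was 12.2% as deposited and 23% after median centring. Among lipid uptake genes 3 of 7 were called: the apolipoprotein gene Apoc1 lower with a share of 77.0% (adjusted p = 3.01e-05), and the receptor gene Lrp1 and the apolipoprotein gene Apoe higher with shares of 36% and 32.3%. The count was also 3 without FXR BAT 1, 2 and 4, beside the same 38.3% of genes with a distance. In lipolysis and lipid droplets 1 of 6 was called toward white, again beside 38.3%, and 1 without those arrays. The gene called with all arrays was Plin5, a droplet protein of oxidative tissues (share 18.2%, adjusted p = 0.00446).

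In adrenergic and cyclic AMP signalling 2 of 8 genes with a distance were called toward white, beside 38.3% of all such genes. The count was also 2 without FXR BAT 1, 2 and 4. Adcy3, an adenylyl cyclase, moved by -0.95 ± 0.13 (adjusted p = 0.000385) with a share of 51.3%. Npr3, the clearance receptor for natriuretic peptides, rose by 0.77 (adjusted p = 0.00956, share 24.2%; 0.0817 without control BAT 2 and 4). The beta adrenergic receptors were not analysed here.

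**Figure D3:**
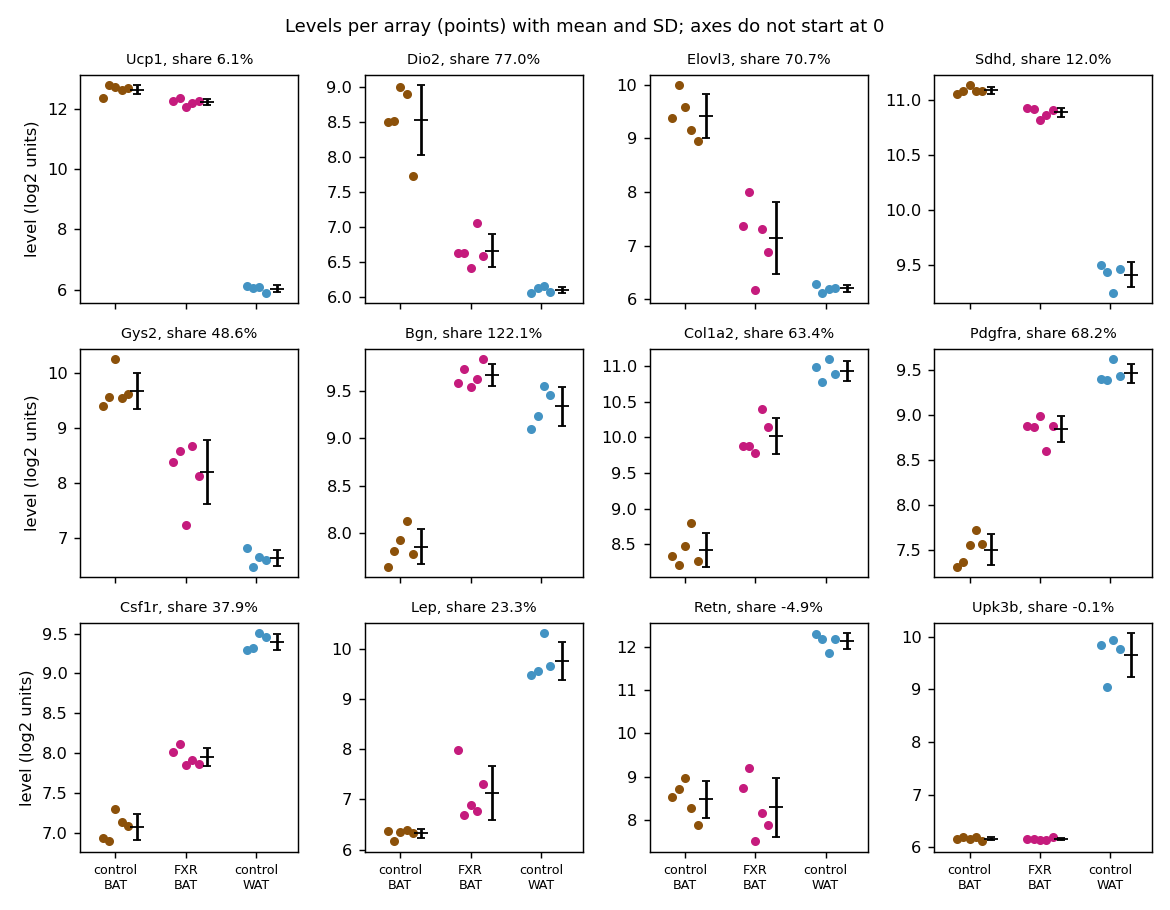
Levels (log2 units) of 12 genes on each array of control BAT, FXR BAT and control WAT, with the mean and SD of each group; the axes do not start at 0. Dio2 and Elovl3 in FXR BAT have means between the control tissues and closer to white, Ucp1 and Sdhd near brown, Bgn above white, Col1a2, Pdgfra and Csf1r between the tissues, and Retn and Upk3b at the brown level.

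Shares in the white adipocyte list ran from -7.46% (Hoxc8) to 94.3% (Dpt, also a matrix gene). Of 28 measured genes of this list 19 had a distance. Of these, 7 were called toward white and 0 away, beside 44.6% and 0.416% of all white-high genes. The median share was 10.7%, beside 14.2% over all white-high genes. Ccdc80, a secreted protein of fat, had a share of 39.3% (move 1.23, adjusted p = 1.06e-05). The count was 4 of 19 without FXR BAT 1, 2 and 4, beside 28.1% of all white-high genes in that fit.

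Leptin (Lep) measured 6.38, 6.16, 6.36, 6.40 and 6.32 in control BAT. FXR BAT measured 7.98, 6.69, 6.88, 6.77 and 7.30, and control WAT 9.49, 9.57, 10.32 and 9.68. All FXR BAT arrays were above control BAT and below white fat, FXR BAT 1 the highest. The move was 0.80 ± 0.21 (adjusted p = 0.0275, share 23.3%), and this call was lost when any of 6 single arrays was left out (adjusted p up to 0.0701). Lep in control BAT was 1.61-fold above the 1% quantile of the arrays, and such dim values compress a change.

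Resistin measured 8.74, 9.20, 7.50, 8.15 and 7.87 in FXR BAT, overlapping control BAT on all sides. Its share was -4.87% ± 7.70 (SE) and it was not called (adjusted p = 0.842). Agt, which encodes angiotensinogen, had a share of -0.865% and lay between 6.46 and 6.65 in FXR BAT, against 10.18 to 10.58 in white fat. Nnat, with the largest distance of the white-high genes, had a share of 10.7% and was not called (adjusted p = 0.212). Hoxc8, a positional gene and the only one of 35 measured depot genes with a distance, had a share of -7.46% and was not called (adjusted p = 0.33). Adipoq and Plin1, genes of adipocytes of both fats, were not called between the BAT groups (adjusted p = 0.948 and 0.386). The mean level of 18 such genes was 10.66 to 10.85 in FXR BAT, 10.84 to 10.94 in control BAT and 10.96 to 11.13 in control WAT. Of the 18, 1 was called lower and 0 higher in FXR BAT, beside 5.32% and 4.8% of all genes.

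Mesothelial genes mark the surface layer of visceral fat depots. Upk3b measured 6.16, 6.21, 6.16, 6.20 and 6.12 in control BAT, 6.16, 6.16, 6.14, 6.15 and 6.20 in FXR BAT, and 9.85, 9.04, 9.94 and 9.77 in control WAT. Both BAT groups overlapped throughout, far below white fat. Of the 10 mesothelial genes with a distance 0 were called by limma, 0 had an unadjusted p under 0.05, and the pooled share was -0.456% ± 0.795 (SD, n = 5). It was 3.83% as deposited and 0.752% with arrays centred on their medians.

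Most matrix genes with a distance were called toward white. In bulk tissue, more cells of a type and more RNA per cell cannot be told apart, nor can fewer cells and less RNA. Of 10 collagens with a distance 7 were called toward white, of 14 proteoglycan and elastic fibre genes 12, and of 10 matricellular genes 9, beside 44.6% of all white-high genes. Pooled shares were 50.6% ± 9.14, 50.6% ± 2.10 and 50.2% ± 2.79 (SD, n = 5), and the median shares were 45.1%, 58.2% and 49.8%. Without FXR BAT 1, 2 and 4 the counts were 6, 11 and 8, beside 28.1% of all white-high genes in that fit.

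Col1a2, a chain of type I collagen, measured 8.34, 8.21, 8.47, 8.80 and 8.26 in control BAT. FXR BAT measured 9.87, 9.87, 9.78, 10.39 and 10.14, and control WAT 10.98, 10.77, 11.09 and 10.88. The 3 groups did not overlap. The move was 1.60 ± 0.12 (adjusted p = 3.19e-06), or 63.4% of the distance. Col14a1, a collagen on the surface of fibrils, had a share of 108% and was not called apart from white (adjusted p = 0.558).

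Bgn encodes biglycan, a small proteoglycan that binds collagen. It measured 7.64, 7.81, 7.93, 8.13 and 7.78 in control BAT, 9.58, 9.72, 9.54, 9.63 and 9.83 in FXR BAT, and 9.10, 9.24, 9.55 and 9.45 in control WAT. FXR BAT lay clear of control BAT, and its lowest array fell inside the white range. The move was 1.80 ± 0.10 (adjusted p = 1.02e-07), the share 122%, and FXR BAT was called above white by 0.33 (adjusted p = 0.0126). That last call was lost without control WAT 1 (adjusted p = 0.0511) and without FXR BAT 1, 2 and 4 (adjusted p = 0.0579).

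Mgp, matrix Gla protein, an inhibitor of calcification, was the other gene beyond white. Its share was 125%, with a move of 1.58 ± 0.10 (adjusted p = 3.63e-07) and a level 0.32 above white (adjusted p = 0.0157). The call against white was lost without control WAT 2 (adjusted p = 0.0583). As deposited its distance was -0.028, so no share can be read there. Among the genes near white, Cilp of cartilage and tendon matrix had a share of 90.4%, the elastic fibre gene Mfap5 85.2%, osteoglycin (Ogn) 86.6% and dermatopontin (Dpt) 94.3%.

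The rise of matrix genes within brown fat is a difference between the BAT groups, but their share of a distance also uses the white level. White arrays still entered the normalization, the spread in the fit and the choice of white-high genes. As deposited the classes were drawn anew, so shares there cover another set of genes. In it 2 collagens and 4 proteoglycan and elastic fibre genes had a distance, and 0 of them were called toward white. Their pooled shares were -23.2% and -20.5%. The matricellular list had 3 of 5 toward white there and a share of 40.4%. Median centring left 4 collagens, all 4 toward white, with a share of 75.8%.

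Of matrix proteases and their inhibitors 7 of 12 were called toward white, beside 44.6% of all white-high genes, with a median share of 18.9%. The pooled share was 22.5%, and as deposited it was 47.9% with 3 of 3 called. Mmp2, a gelatinase, had a share of 64.6% (adjusted p = 2.85e-06). Ctss, a protease of macrophages, had 70.3% (adjusted p = 6.03e-05). Without FXR BAT 1, 2 and 4 the count was 4, beside 28.1% of all white-high genes in that fit.

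Progenitor and fibroblast genes ran with the matrix. Of 10 with a distance 7 were called toward white, beside 44.6% of all white-high genes. Without FXR BAT 1, 2 and 4 the count was 5, beside 28.1% of all white-high genes in that fit. The pooled share was 50.4% ± 2.01 (SD, n = 5). As deposited, 5 genes of the list had a distance, 1 was called toward white, and the share over them was -9.58%. Pdgfra, the receptor that marks adipose progenitors, measured 7.31, 7.37, 7.56, 7.72 and 7.56 in control BAT, 8.88, 8.86, 8.99, 8.60 and 8.88 in FXR BAT, and 9.41, 9.40, 9.62 and 9.44 in control WAT. FXR BAT arrays stood apart from both control tissues. The move was 1.34 ± 0.08 (adjusted p = 3.63e-07), a share of 68.2%. Sfrp1, an inhibitor of Wnt signalling, had a share of 102% and Tgfb3, a growth factor of the TGF-beta family, 82.2%.

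Macrophage genes were called toward white in 15 of 16 cases with a distance, beside 44.6% of all white-high genes. The pooled share was 37.7%, 37.0%, 24.3%, 34.0% and 28.4% in FXR BAT 1 to 5, and control BAT arrays lay between -8.04% and 9.25%. Without FXR BAT 1, 2 and 4 the count was 10 of 16, beside 28.1% of all white-high genes in that fit. As deposited, 3 genes had a distance and all 3 were toward white. The mean pooled share was 32.3%, and it was 72.5% as deposited and 49.4% after median centring. The mean level of the 25 macrophage genes was 7.94 to 8.12 in control WAT, 6.99 to 7.16 in FXR BAT and 6.55 to 6.77 in control BAT.

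Csf1r, the growth factor receptor of macrophages, measured 6.94, 6.90, 7.30, 7.14 and 7.09 in control BAT, 8.01, 8.12, 7.86, 7.92 and 7.87 in FXR BAT, and 9.30, 9.32, 9.50 and 9.46 in control WAT. The groups did not overlap. The move was 0.88 ± 0.07 (adjusted p = 6.13e-06), a share of 37.9%. C1qa, a complement subunit made by macrophages, had a share of 52.8% (adjusted p = 5.38e-05), and Cybb, of the phagocyte oxidase, 35.4% (adjusted p = 7.13e-05).

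Of 8 inflammatory and acute phase genes with a distance 4 were called toward white, beside 44.6% of all white-high genes. Without FXR BAT 1, 2 and 4 the count was 1, beside 28.1% of all white-high genes in that fit. Lbp, which binds bacterial lipopolysaccharide, rose by 1.70 ± 0.14 (adjusted p = 4.85e-06), a share of 51.5%. In the complement list 4 of 10 were called, beside the same 44.6%, and 4 without those arrays. Serping1, the inhibitor of the first complement component, had a share of 90.4% (adjusted p = 8.01e-05), and C3ar1, a receptor of complement fragments, 56.4% (adjusted p = 7.19e-06). For lymphocytes 2 of 6 were called, again beside 44.6%, and 1 without those arrays. The pooled share was 0.251% ± 4.71 (SD, n = 5). It was -15.1% over the 1 gene left after median centring.

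**Figure D4:**
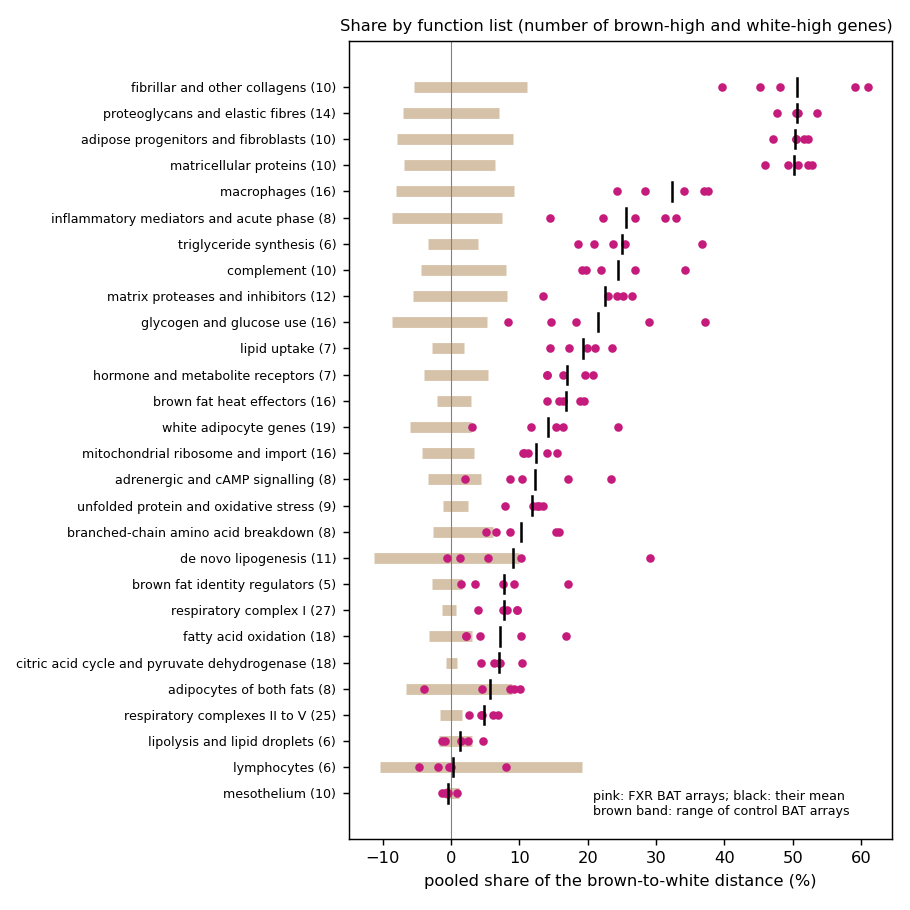
Pooled share of the distance (%) for each function list with at least 5 genes that have a distance (number in brackets): pink points are the 5 FXR BAT arrays, black lines their mean, and brown bands the range of control BAT arrays. Matrix and fibroblast lists lie near 50%, macrophages at 32.3%, respiratory chain and mesothelium near 0% to 8%. Other scalings give another set of genes with a distance. As deposited, shares of opposite sign were found for collagens (-23.2%), proteoglycans (-20.5%), progenitors (-9.58%) and mesothelium (3.83%). After median centring the same held for lymphocytes (-15.1%) and mesothelium (0.752%).

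Of 32 measured muscle genes 10 were called higher and 0 lower in FXR BAT than in control BAT, beside 4.8% and 5.32% of all genes. Against control WAT 31 were called higher in FXR BAT, beside 22.6% of all genes. The 2 muscle genes with a distance were brown-high, and Myl1, a myosin light chain, was called away from white. It measured 10.29, 9.77, 8.75, 10.32 and 8.95 in FXR BAT and 8.49 to 9.00 in control BAT. Arrays 1, 2 and 4 were the high ones, and the rest lay within the control range. The call (adjusted p = 0.0465) was lost without them (adjusted p = 0.833). It was also lost when any of 12 single arrays was left out (adjusted p up to 0.113), as deposited (0.0568) and after median centring (0.0728). The part of muscle RNA in the other results was not tested.

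The 7 genes called away from white were Flvcr1, Clec2d, Bcat2, Myl1, Pik3cb, Myl12a and Ppp2r1b, the last 2 named after their values were seen. Flvcr1, a transporter, was brown-high and rose further: FXR BAT ranged from 8.21 to 8.95 and control BAT from 7.71 to 8.12 (adjusted p = 0.000917). The calls of Clec2d, Bcat2 and Pik3cb were lost when single arrays were left out, with adjusted p up to 0.0638, 0.0968 and 0.122.

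Some genes changed in FXR BAT with a distance under 0.5 log2 units. Inhba, the subunit of activin A, measured 6.26, 6.18, 6.14, 6.17 and 6.22 in control BAT, 7.94, 7.85, 8.54, 8.12 and 8.64 in FXR BAT, and 6.04, 6.36, 6.56 and 6.35 in control WAT. Only FXR BAT was high. Its move was 2.02 ± 0.14 (adjusted p = 7.64e-07), with a distance of 0.13 that was not called. Itm2a, Thbs4, Col8a1 and Nox4 rose by 1.44, 1.39, 1.27 and 1.19 with distances between -0.30 and 0.10. Nox4 makes hydrogen peroxide, and Col8a1 is a short-chain collagen.

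Among falls with such a small distance was that of Ffar4, a receptor for long-chain fatty acids, which moved by -1.29 ± 0.24 (adjusted p = 0.00286) with a distance of -0.39 that was not called. FXR BAT ranged from 6.60 to 7.12, control BAT from 7.34 to 9.00 and control WAT from 7.60 to 7.91, so FXR BAT was below both control tissues. Slc6a6, Noct, Tmx4 and Btnl9 moved by -0.68, -0.65, -0.63 and -0.62, with distances of -0.20, -0.49, -0.37 and -0.05. The distances of Noct and Tmx4 were called (adjusted p = 0.00106 and 0.000507), so these genes fell in the direction of white, and Noct was not called apart from white (adjusted p = 0.205). The Btnl9 call was lost without FXR BAT 1, 2 and 4 (adjusted p = 0.103). In the list of FXR targets and bile acid genes 3 of 23 had a distance and 0 were called toward white by limma (0 at an unadjusted p under 0.05), while 2 of 23 were called higher in FXR BAT and 0 lower, beside 4.8% and 5.32% of all genes.

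The size of a share also depended on the scale. A share from group means of linear intensity, chosen after seeing the data, had a median of 15.1% over brown-high and 8.11% over white-high genes, the reverse order of the log2 shares. Ucp1 covered 24.9% on the linear scale, since FXR BAT held 75.4% of the control BAT intensity. Lep covered 8.35% and Bgn 139%. A log2 share weighs fold changes and a linear share weighs intensity, which saturation and the array floor both compress.

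**Figure D5:**
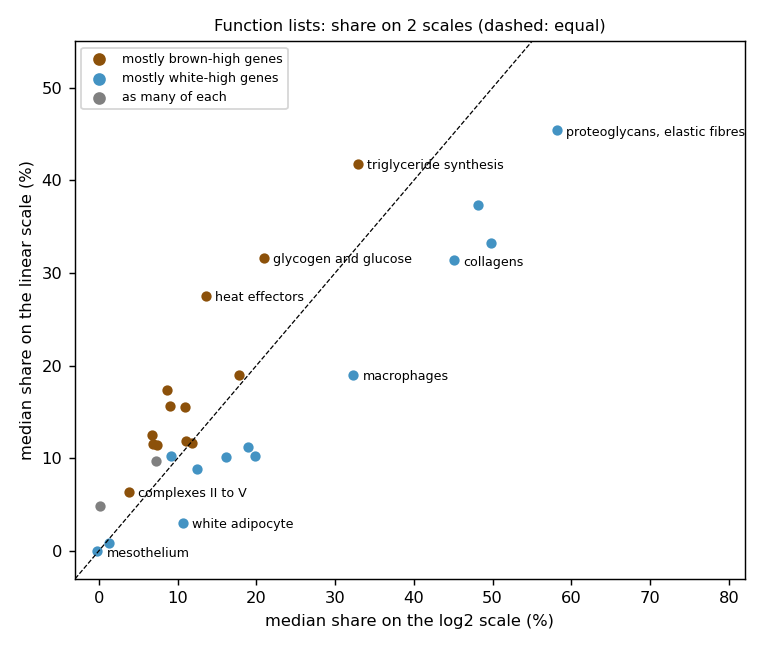
Median share of each function list (%) on the log2 scale (horizontal) and on the linear scale (vertical), for lists with at least 5 genes that have a distance; the dashed line marks equal values. Heat effectors (13.6% and 27.5%) and glycogen genes (21.0% and 31.6%) lie above the line, and macrophages (32.3% and 19.0%) and collagens (45.1% and 31.4%) below it.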

How the data were processed

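Each deposited value is the authors' intensity of a probe set on an array, on a linear scale. Their summarisation and normalization are not given in the sources used here. Of 34760 probe sets, 21640 with 1 symbol in the platform annotation were kept, and the brightest per gene left 19937 genes. Values were taken as log2(value + 1) and quantile normalized over all 18 arrays. limma 3.58.1 in R 4.3.3 (lmFit and eBayes, two-sided, Benjamini-Hochberg over all genes, threshold 0.05) fitted 3 group means to 14 arrays, with no filter on dim genes, and was tested on simulated data. Standard errors of shares come from the delta method. Pooled shares are summed moves over summed distances per array, with no test. The function lists hold 987 entries for 945 distinct genes, so lists that run together can share members. The number of arrays limits the precision, and dim genes are compressed. As deposited, 58.5% to 62.0% of probe sets in control WAT lay within 1.5-fold of the array's 1% quantile. In BAT the part was 28.7% to 34.9%.

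The rule for named genes took fixed markers, the largest distances, the largest moves toward, away from and beyond white or without a distance (under 0.5), and up to 3 called members per list. Predicted genes, RIKEN entries and olfactory receptors were left out. Members, lists and rules were chosen with earlier results of these data known. Alternatives were other scalings, probe set rules, distance limits, split control arrays, a replicate block and left-out arrays. Deviations of samples with the same replicate number correlated at -0.50 to 0.21. Between control BAT and control WAT the values were 0.18, 0.15, 0.14 and -0.077 for replicates 1 to 4. With no values for samples of unlike numbers beside them, these cannot tell whether the numbers pair samples.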

Additional observations from a re-analysis of the deposited data

Results flagged for a closer look

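Of 272 groups of arrays, 11 held 1 array far from the rest, and chance gives about 1 in 20 groups. Over all genes with a distance, control WAT 2 had the lowest summed share of its group at 97.0%, against 100.6% to 101.3% on the other white arrays. Over matrix proteases and inhibitors FXR BAT 3 stood low at 13.5%, against 23.0% to 26.5%. Over unfolded protein and oxidative stress genes FXR BAT 4 stood low at 7.86%, against 12.1% to 13.5%. In that list 4 of 9 genes were called toward white, beside 38.3% of all genes with a distance. The count was 1 of 9 without FXR BAT 1, 2 and 4.

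Single levels (log2 units) apart from their group were Ppargc1a at 7.97 in control BAT 5, Gys2 at 10.25 in control BAT 3, Mmp2 at 7.58 in control BAT 4 and Acadm at 12.63 in control BAT 1. In FXR BAT they were Hoxc9 at 6.19 in array 1, Slc6a6 at 8.61 in array 2 and Tfam at 7.43 in array 4. In control WAT 4, Adcy3 stood at 7.54.

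Among 13120 probe sets with several or no listed symbols, which enter no comparison above, 42 were called between FXR BAT and control BAT. For the genes above the part was 10.1%. A brown-to-white distance was found for 519, and 14 of these were called toward white, with 0 away by limma. Of the genes with a distance, 38.3% were called toward white.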

How the results depend on the processing

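Scaling changed most. As deposited, 19435 genes were called between FXR BAT and control WAT (99.0% higher in FXR BAT), 19232 between the control tissues and 3614 between the BAT groups. Of these, 1671 brown-high genes were lower and 39 white-high genes higher in FXR BAT, with shares of 8.53% and 34.0%. With arrays centred on their medians, 3920 genes were called between the BAT groups (25.8% higher, against 47.4%), 1096 and 144 toward white, with shares of 17.7% and 27.2%. As deposited the distance turned sign for Hoxc9 (-0.18), Hoxc10 (-0.41), Adipoq (-1.08), Plin1 (-0.72), Nr1h4 (-0.29), Nr0b2 (-0.27), Bcat2 (-0.38), Mgp (-0.028), Pik3cb (-0.014), Ghr (-0.48), Ifi27l2a (-0.37) and Rxra (-0.18), and with median centring for Adipoq (-0.45) and Plin1 (-0.093). Without FXR BAT 1, 2 and 4, 1149 genes were called between the BAT groups and 203 white-high genes were higher. Without control BAT 2 and 4 the counts were 948 and, for brown-high genes, 106. Separate control arrays gave 91 or 121 brown-high genes lower, and 183 white-high genes higher in the first split. A distance of at least 0.5 gave 476 and 598 genes toward white and a brown-high share of 13.4%, and one of at least 2 gave 42 and 72. Fits of 2 groups gave a brown-high share of 10.1%. The linear scale, added after seeing the data, gave 14.6% and 10.8%. The causes were not tested.

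Leaving out 1 array gave 11302 to 11825 genes called between FXR BAT and control WAT, 11499 to 12037 between the control tissues and 1393 to 2214 between the BAT groups. Toward white were 145 to 212 brown-high and 259 to 327 white-high genes, with shares of 9.86% to 11.7% and 17.3% to 19.1%. With the replicate number as a block, 1815 genes were called between the BAT groups, 199 brown-high genes were lower and 303 white-high genes higher. Whether the numbers pair the samples is not given in the labels. Of 92 called named genes, 56 kept the call in every fit, 21 lost it with 1 array left out, 15 in another setting only, and 0 changed direction. Dim genes in white fat limit the distance of genes near the floor: 28 brown-high genes in WAT and 37 white-high genes in BAT.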
